A study of Mus musculus with 22 samples.

Results

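Some droplets of a single-cell experiment hold RNA that is mostly haemoglobin message. Such barcodes were chosen by 1 rule in every library: the alpha chain genes Hba-a1 and Hba-a2 with the beta chain genes Hbb-bs and Hbb-bt gave more than 50% of the barcode's unique molecular identifiers (UMIs, 1 per captured transcript), with no minimum of genes. The rule selected 4816 of 179929 barcodes (2.68%) over 22 mouse libraries, and these are called members below. The haemoglobin share was therefore used to choose the members and is given as a description. The measurements described here are what else the members held, and how that differed between sorted blood cells and dissociated organs.

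The libraries came from mice without tumours, 551 to 654 days old in the blood-sort and organ libraries. All mice carried a tamoxifen-inducible Cre recombinase driven by the Prom1 promoter (Prom1-CreERT2) and the Rosa26ZSG allele, which tags recombined cells and their descendants with ZsGreen. The ntCZC libraries, 10 in number, held ZSG+ cells sorted from peripheral blood by a gate for nucleated cells, where the study's methods describe lysis of the red cells of the blood before sorting, and came from mice that were wild type (wt, 2 libraries), heterozygous (het, 4) or null (4) for Nalcn, a sodium leak channel deleted only where the Cre was active. The tissue libraries held cells of perfused and dissociated organs (lung, liver, stomach, kidney, and uterus or epididymis), pooled after hashtag labelling, with 5 wt, 2 het and 2 null libraries and 2 whose title and strain entry name different genotypes. The last 2 were put in no group and entered no test. The only PBMC library held peripheral blood mononuclear cells of a wt male aged 120 days, so it differs in age as well as in preparation, and it is described without a test.

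Red cells are built in the marrow from nucleated erythroblasts. In mammals the nucleus is expelled, and the young red cell, the reticulocyte, then clears its mitochondria and ribosomes while it finishes making haemoglobin from its remaining message. A haemoglobin molecule pairs alpha chains (Hba-a1 and Hba-a2) with beta chains (Hbb-bs and Hbb-bt), each holding a haem group. Mature red cells carry residual RNA, and broken red cells release haemoglobin message into a cell suspension, so a haemoglobin-rich barcode is not by itself a whole red cell.

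The genes within each chain pair are nearly the same, which bears on how their UMIs are divided. The coding sequences of Hba-a1 and Hba-a2 are both 426 bases and differ at 1 base (99.77% identity), and those of Hbb-bs and Hbb-bt are both 441 bases and also differ at 1 base (GENCODE vM21, build GRCm38). The last 90 coding bases of each gene, shown because they hold that base, follow with the differing base in capitals. They lie at chr11:32284299-32284388 and chr11:32297116-32297205 on the plus strand for the alpha genes and at chr7:103826668-103826757 and chr7:103812659-103812748 on the minus strand for the beta genes.
Hba-a1: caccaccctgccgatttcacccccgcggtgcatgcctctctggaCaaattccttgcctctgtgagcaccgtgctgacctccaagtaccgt
Hba-a2: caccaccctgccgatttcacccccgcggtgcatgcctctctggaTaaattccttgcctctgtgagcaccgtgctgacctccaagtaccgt
Hbb-bs: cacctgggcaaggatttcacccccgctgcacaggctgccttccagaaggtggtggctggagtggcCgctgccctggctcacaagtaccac
Hbb-bt: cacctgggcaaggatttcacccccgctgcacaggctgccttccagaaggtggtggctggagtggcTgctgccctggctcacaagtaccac
Of the 610 windows of 90 bases in the Hba-a1 transcript, 359 also occur in Hba-a2, and of the 539 windows in Hbb-bs, 341 occur in Hbb-bt. Among the last 90 windows, nearest the 3′ end, 33 are shared by the alpha pair and 0 by the beta pair. Where the reads fell was not examined. The split within each pair is therefore less certain than the sum of the chains.

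The beta genes also differ upstream, and the 110 bases before the RefSeq start of each (GRCm38.p6, minus strand, chr7:103827929-103828038 and chr7:103813924-103814033) are shown because Hbb-bs gave most of the beta UMIs. Capitals mark the letters CCAAT and TATAA and those of CACCC, searched on both strands, so ATTGG is CCAAT on the other strand, and neighbouring matches can touch.
Hbb-bs promoter: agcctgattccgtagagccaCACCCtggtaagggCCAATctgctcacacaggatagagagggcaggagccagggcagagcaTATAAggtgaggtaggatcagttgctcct
Hbb-bt promoter: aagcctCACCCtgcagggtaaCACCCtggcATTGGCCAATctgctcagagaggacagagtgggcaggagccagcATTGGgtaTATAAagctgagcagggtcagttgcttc
Hbb-bs holds 1 match of each, and Hbb-bt holds 3 of CCAAT, 1 of TATAA and 2 of CACCC. Among 32844 promoter windows of the same length, 20.2% hold CCAAT, 10.9% hold TATAA and 29.6% hold CACCC. These matches are letters in a window and not measured sites.

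Members were a larger share of the pooled sorted blood barcodes than of the pooled organ barcodes, but single libraries overlapped. This is a description of what the rule chose. The ntCZC libraries gave 244 members of 2501 barcodes (9.76%), the 9 tissue libraries with a group 3159 of 143502 (2.20%), the 2 tissue libraries without a group 1364 of 33174 (4.11%) and the PBMC library 49 of 752 (6.52%, exact 95% binomial interval 4.86 to 8.52, counting error only). The share ran from 2.00 to 28.0% per ntCZC library (median 6.08%) and, with the tissue libraries without a group included, from 0.0549 to 11.7% per tissue library (median 0.703%). Member numbers ran from 2 to 73 per ntCZC library and from 2 to 1001 per tissue library with a group. The wt ntCZC libraries held 10 and 16 members, the het libraries 5, 2, 13 and 35, and the null libraries 58, 18, 14 and 73. In tissue the wt libraries held 729, 892, 114, 53 and 2, the het libraries 1001 and 233, and the null libraries 10 and 125.

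Libraries with fewer than 10 members (ntCZC het replicates 1 and 2, tissue wt replicate 5) entered no test, which left 8 ntCZC against 8 tissue libraries. Their members summed to between 1915 and 11583 non-haemoglobin UMIs in ntCZC and between 2473 and 608532 in tissue, so the ntCZC values are the less precise. Of the tested libraries, 2 stood apart beyond this comparison. In ntCZC wt replicate 3, a shallow library of 77 barcodes, mitochondrial genes gave 26.0% of the non-haemoglobin UMIs of the other barcodes, against 2.07 to 5.03% in the other tested ntCZC libraries. Tissue null replicate 3 is labelled female with uterus, but epididymal markers gave 143 per 10,000 non-haemoglobin UMIs in its other barcodes against 0.0503 in the female tissue wt replicate 4. The comparison of genes is given below without both. The 16-base barcode sequences of 205 members (4.26%) also occurred in another library, close to the 4.37% of all barcodes, and 8 members, all in tissue, shared a sequence with a member of another library. No ntCZC or PBMC member did.

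The haemoglobin share itself had a different shape in blood and organs. In ntCZC it ran from 86.3 to 99.4% with a median of 97.6%, and 243 of 244 members lay above 90%. Tissue members ran from 50.03 to 96.0% with a median of 74.3%, and 196 of 3159 lay above 90%. PBMC members had a median of 94.0%, and the members of the tissue libraries without a group one of 82.8%. The threshold cut through the tissue distribution, where 573 barcodes lay between 40 and 50% and 573 between 50 and 60%, but through no ntCZC barcode, since none lay between 40 and 60%.

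**Figure D1:**
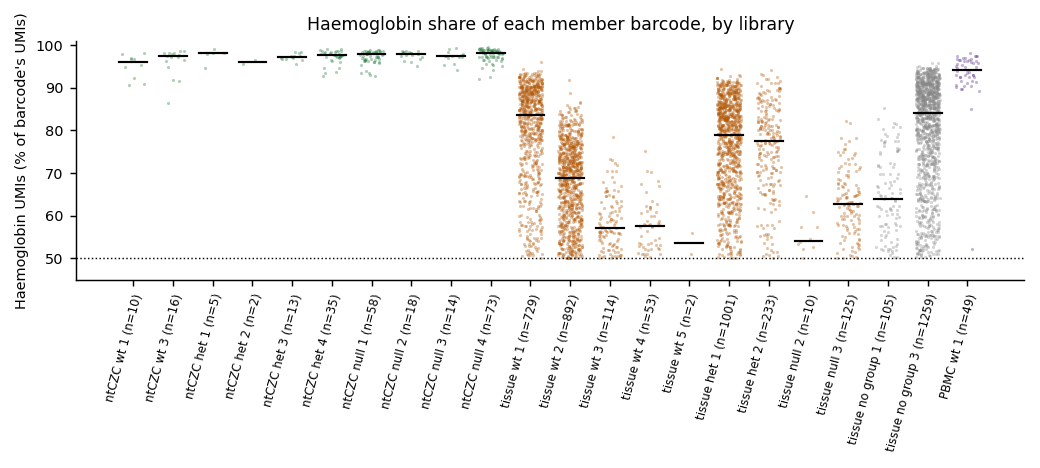
Haemoglobin share of every member (points, percent of the barcode's UMIs) by library, with the median as a black bar and the 50% threshold dotted. The ntCZC members sit near the top, with a pooled median of 97.6%, and the tissue members spread down to the threshold.

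Haemoglobin in the barcodes outside the rule was rare in the blood sort. Members held 99.85 to 99.98% of all haemoglobin UMIs in each tested ntCZC library. The other ntCZC barcodes held haemoglobin at 0.00192 to 0.0736% of their UMIs, against 0.178 to 1.22% in tissue. In tissue, members held between 3.13 and 88.2% of a library's haemoglobin UMIs, and the rest lay in barcodes below the threshold.

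Blood members had more UMIs than organ members and fewer genes. The median member had 3499 to 9812 UMIs per tested ntCZC library (6780 ± 2485, mean ± SD, n = 8) and 552 to 3150 per tested tissue library (1402 ± 833, n = 8), and the groups did not overlap. Most of these are the haemoglobin UMIs that the rule used, so the difference of 5378 UMIs is a description with no test. Among members above 90% haemoglobin, with 3 tissue libraries left, it was 4435 UMIs. The median ntCZC member held 49.5 genes and 105.5 non-haemoglobin UMIs, and the median tissue member 170 genes and 421 non-haemoglobin UMIs. The other barcodes of a library had a median of 222 to 6871 UMIs and 44 to 2168 genes in ntCZC, and 893 to 4489 UMIs and 424 to 1359 genes in tissue. Fewer than 200 genes were found in 238 of 244 ntCZC members and 1838 of 3159 tissue members, so a filter at 200 genes would have removed 97.5% and 58.2% of them. The smallest member had 209 UMIs in ntCZC and 505 in tissue, so the low end of the deposited barcodes differed as well.

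Of the red cell markers outside the rule, Alas2 was found in most members and Slc4a1 in few. Alas2, the first enzyme of haem synthesis in red cells, was found in 213 of 244 ntCZC members, 2582 of 3159 tissue members and 43 of 49 PBMC members. Its mean level in members was 631 UMIs per 10,000 non-haemoglobin UMIs in ntCZC against 0.00349 in the other barcodes of the same libraries, and 53.7 against 0.0929 in tissue. The red cell lists, 92 genes in 8 lists, also hold genes that all cells express, such as the ferritin chains. Slc4a1 (band 3, the anion exchanger of the red cell membrane) was found in 16, 311 and 12 members. These comparisons of members with other barcodes describe the selection and were not tested.

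Nuclear and kidney tubule RNA was rare or not found in the blood members and common in the organ members, while leukocyte markers were less clearly apart. Malat1, an RNA kept in the nucleus, was found in 13 of 244 ntCZC members and 2099 of 3159 tissue members. At least 1 of 6 kidney tubule genes was found in 2685 tissue members, at least 1 of 6 pan-leukocyte genes in 919, and at least 1 of 8 monocyte and macrophage genes in 890. In ntCZC members the counts were 0, 6 and 23. A count of 0 of 244 allows up to 1.23% of members with such a UMI at this depth, and sets no limit on members that hold the RNA. Per 10,000 non-haemoglobin UMIs the groups overlapped for monocyte and macrophage genes, at 0 to 12.1 in the tested ntCZC libraries and 1.31 to 14.4 in tissue, and for pan-leukocyte genes, at 0 to 6.52 and 0 to 23.7. These shares rest on a median of 421 non-haemoglobin UMIs in tissue members and 105.5 in ntCZC members, and free RNA in a suspension reaches any droplet. Kidney tubule genes stood at 32.3 to 119 UMIs per 10,000 non-haemoglobin UMIs in tissue members and at 28.5 to 201 in the other barcodes of the same libraries, which overlap. Tissue members are therefore called haemoglobin-dominated barcodes and not red cells.

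Nalcn gave 0 UMIs in all 4816 members, and 0 UMIs in every barcode of the ntCZC and PBMC libraries, so the genotype labels could not be checked in members. The tissue libraries held 0 to 18 Nalcn UMIs in all their barcodes, including 6 and 18 in the null libraries, where the allele is deleted only in cells with active Cre. Prom1, whose promoter drove the Cre, gave 9 UMIs in tissue members and 0 in ntCZC members.

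Mitochondrial transcripts separated blood members from organ members. The 13 mitochondrial genes gave 0.756 to 3.11% of non-haemoglobin UMIs in the 8 ntCZC libraries (median 1.28%) and 36.3 to 62.6% in the 8 tissue libraries (median 55.1%). The groups did not overlap, and the means of 1.47 ± 0.731% and 52.5 ± 8.69% (SD, n = 8 each) differed by 51.1 percentage points. The exact two-sided permutation test over libraries gave p = 0.0001554, the smallest that 12870 arrangements allow. Adjusted over 6 values, 1 of them the median UMIs per member, the p of that test was 0.0004662. At least 1 mitochondrial transcript was found in 135 of 244 ntCZC members and in all 3159 tissue members. In the other barcodes of the tested tissue libraries the mitochondrial share was 21.1 to 42.3% (median 32.7%). In those of the tested ntCZC libraries it was 2.07 to 26.0% (median 3.35%), the highest in wt replicate 3. Blood and organ libraries thus differed outside the rule as well, and the difference is not particular to members. The PBMC members stood at 2.39%, inside the ntCZC range. Dissociated organs and sorted blood differ in preparation, source and capture together, which cannot be told apart here.

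**Figure D2:**
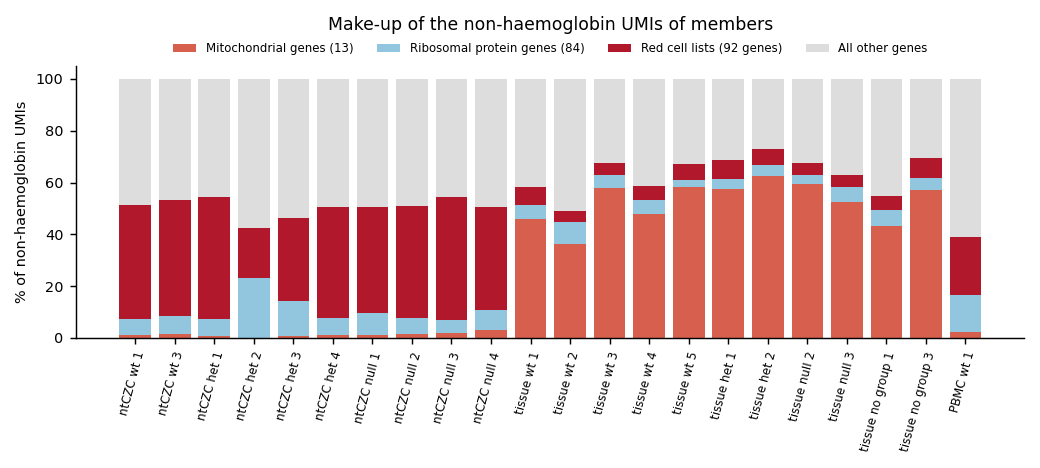
Make-up of the non-haemoglobin UMIs of members (percent, summed over the members of each library) by library, as mitochondrial genes, ribosomal protein genes, genes of the red cell lists and all others. Mitochondrial genes fill 36.3 to 62.6% of the tested tissue libraries and at most 3.11% of the tested ntCZC libraries, where red cell lists fill 31.8 to 47.3%.

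Ribosomal protein genes differed less. Their share was 5.18 to 13.6% of non-haemoglobin UMIs in ntCZC and 3.68 to 8.39% in tissue, so the groups overlapped, and 14.3% in PBMC members. In the other barcodes of the tested libraries it was 13.7 to 27.1% in ntCZC and 8.07 to 12.6% in tissue. The PBMC value turned on 1 member between 50 and 60% haemoglobin, which held 2647 of the 10436 non-haemoglobin UMIs and had a share of 36.7%. Without it the other 48 PBMC members had 6.64%, inside both ranges, so PBMC levels per non-haemoglobin UMI rest in part on that barcode. The means of 7.60 ± 2.62% and 5.20 ± 1.51% (SD, n = 8 each) differed by 2.41 percentage points (exact permutation test, p = 0.0225, adjusted p = 0.0451). That adjustment also counted the median UMIs per member, mostly the haemoglobin UMIs that the rule used. A low p there lowers the adjusted p here, so no call is drawn from it. The adjusted p stayed under 0.05 in only 5 of 16 fits that left out 1 library. These were the fits without ntCZC wt replicate 1, het replicate 4, null replicate 2 or null replicate 3 or tissue wt replicate 2. In the other fits it rose to as much as 0.0995.

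How a red cell transcript compares between blood and organ members depends on what it is measured against, because mitochondrial and other RNA filled the tissue sums. The genes of the red cell lists gave 31.8 to 47.3% of non-haemoglobin UMIs in the tested ntCZC libraries, 4.3 to 7.11% in tissue and 22.1% in PBMC. Per 10,000 haemoglobin UMIs of the same members they gave 87.9 to 270 in ntCZC, 147 to 382 in tissue and 189 in PBMC, and here the groups overlapped. The first quantity is called the share scale below and the second the haemoglobin scale. Each scale shifts most genes together, and overlap of the groups was not counted over all genes. A gene said below not to overlap on a scale is therefore described, and not set apart from other genes. A lower sum may come from fewer members holding a transcript or from less of it in each member, and sums cannot tell these apart.

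The edgeR quasi-likelihood test with TMM scaling and sex as covariate was run on the 88 non-haemoglobin genes that passed the low-count filter. It called 72 of them at an adjusted p under 0.05, which is 81.8% of those tested, with 33 higher in ntCZC (37.5%) and 39 lower (44.3%). Without both libraries in doubt it called 65. The filter asks for 8 libraries at 9.23 or more per 10,000 non-haemoglobin UMIs, and 15 genes reached that level in ntCZC libraries alone and 5 in tissue libraries alone. Such genes passed through the kind where they are high, so the 13 higher and 5 lower calls among them (2 were not called) are no support, and their differences are given below with no p. Of the 68 genes that reached it in libraries of both kinds, 20 were called higher and 34 lower. Here 1 library of a kind was enough to count, so some of these also passed mostly through 1 kind. Of the 46 that reached it in at least 4 libraries of both kinds, 17 were called higher and 22 lower. Of the 21 that reached it in all libraries of both kinds, 8 were called higher and 11 lower. The 88 genes shifted together with the scaling. Their median log2 difference, ntCZC over tissue, was 0.05 with TMM, 2.15 when scaled to total non-haemoglobin UMIs, -0.56 when scaled to the red cell list UMIs (87 of them tested) and -1.54 when scaled to haemoglobin UMIs (85 tested). The 21 red cell list genes that passed the filter had medians of 0.70, 2.83, 0.11 and -0.76 on these 4 scalings, the last over 20 of them, which is 0.66, 0.68, 0.67 and 0.78 above the median of all tested genes. They include Glrx5, Isg20 and, except on the last scaling, Slc48a1, which reached the filter's level in ntCZC libraries alone. These medians are therefore a description. With TMM, 14 of the 21 were higher and 6 lower, or 11 and 6 of the 18 that reached the filter's level in both kinds. Of the 17 that reached it in at least 4 libraries of both kinds, 11 were higher and 5 lower. Scaled to total non-haemoglobin UMIs all 21 were higher, where 68.2% of all 88 genes were higher and 84.1% were called in either direction. Scaled to red cell list UMIs 7 were higher and 6 lower, where 14 of the 87 genes shared with the TMM fit were higher and 43 lower. Over all 141 genes tested on that scaling, 9.93% were higher, 64.5% lower and 74.5% called. Scaled to haemoglobin UMIs edgeR called 0 higher and 10 of 20 lower, where 61 of the 85 genes shared with the TMM fit were lower. Over all 149 genes tested on that scaling 83.9% were lower, and 0 were higher even at an unadjusted p under 0.05. Haemoglobin UMIs are what the rule used, and their larger part in ntCZC members lowers the sum of all other transcripts per haemoglobin UMI, so nothing is read from these counts and differences on this scaling are given below as descriptions with no p. Signs of single genes below are therefore given with their scaling, and a change of sign between scalings is that shift and not a finding about a gene. Of the 20 red cell list genes tested on all 4 scalings, 14 lay above the median of all tested genes on each and 6 below it on each, and of all 85 such genes 40 and 42. The 4 scalings use the same counts, and subtracting the median removes most of the shift between them. Agreement over the 4, here and for single genes below, is therefore 1 result and not 4. The 20 include Glrx5 and Isg20, which reached the filter's level in ntCZC libraries alone. In libraries with at least 5000 non-haemoglobin UMIs only ntCZC null replicates 1 and 4 were left against 7 tissue libraries, and there Fam46c (0.0318), Epb41 (0.34), Gpx1 (0.95), Ube2o (0.10), Gm42418 (0.0249) and Fth1 (0.33) turned to positive differences.

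Haem synthesis was represented by 8 listed enzymes, of which 6 had a UMI in ntCZC members and 2 passed the filter. Alas2 stood at 460 to 791 UMIs per 10,000 non-haemoglobin UMIs (median 634) against 27.6 to 77.0 in tissue (median 51.1) and 223 in PBMC, with no overlap of ntCZC and tissue. On the haemoglobin scale the levels overlapped, with 13.4 to 28.0 in ntCZC, 13.3 to 45.4 in tissue and 19.1 in PBMC. With TMM Alas2 was higher in ntCZC (log2 difference 1.31, SE 0.22, adjusted p = 1.0e-05), and scaled to haemoglobin UMIs it differed by -0.31 (SE 0.34). Against the median of all tested genes it lay 1.24 to 1.26 higher on the 4 scalings. Fech, the enzyme that inserts iron to complete haem, stood at 48.9 to 118 in ntCZC and 7.46 to 20.7 in tissue on the share scale. It was the only red cell list gene of the 21 not called with TMM (log2 difference 0.34, adjusted p = 0.193), although it passed without ntCZC wt replicate 1 (0.63, adjusted p = 0.0242), and scaled to haemoglobin UMIs it differed by -1.25. Among members above 90% haemoglobin its TMM difference was -0.47 (adjusted p = 0.324).

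Of 11 red cell enzymes and antioxidants, 3 passed the filter, with 2 called higher and 1 lower with TMM, where 37.5% and 44.3% of all tested genes were. Bpgm makes 2,3-bisphosphoglycerate, which lowers the affinity of haemoglobin for oxygen. It stood at 178 to 539 per 10,000 non-haemoglobin UMIs in ntCZC (median 454), 11.2 to 39.8 in tissue (median 22.8) and 173 in PBMC. With TMM it was higher in ntCZC (log2 difference 1.88, SE 0.23, adjusted p = 1.1e-07), as it was scaled to total non-haemoglobin UMIs (4.00) and to red cell list UMIs (1.28), and scaled to haemoglobin UMIs the difference was 0.35. Its haemoglobin-scale levels overlapped, at 4.93 to 26.4 in ntCZC and 5.39 to 19.4 in tissue. Against the median of all tested genes Bpgm lay 1.83 to 1.90 higher on the 4 scalings. Of the antioxidant enzymes, Prdx2 stood at 48.6 to 110 in ntCZC and 6.71 to 16.2 in tissue on the share scale, and Gpx1 at 40.04 to 209 and 25.9 to 54.0. Prdx2 was higher with TMM (0.56, adjusted p = 0.046) but differed by -0.997 scaled to haemoglobin UMIs. Its TMM call was lost without ntCZC null replicate 1 (adjusted p = 0.121) or tissue null replicate 3 (adjusted p = 0.0773). Gpx1 was lower with TMM (-0.70, adjusted p = 0.039) but higher scaled to total non-haemoglobin UMIs (1.36). Its TMM call was kept in only 4 of 16 fits that left out 1 library, those without ntCZC wt replicate 1, het replicate 3 or null replicate 1 or tissue het replicate 1.

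Of 11 genes of iron and haem handling, 4 passed the filter, with 2 called higher and 2 lower with TMM, where 37.5% and 44.3% of all tested genes were. One of the higher ones, Slc48a1, reached the filter's level in ntCZC libraries alone. Slc25a37 (mitoferrin-1) brings iron into the mitochondria of developing red cells. On the haemoglobin scale it stood at 0.822 to 5.1 in ntCZC (median 1.46) and 7.28 to 32.4 in tissue (median 10.2), with no overlap, and at 4.67 in PBMC. On the share scale it stood at 27.0 to 83.6 in ntCZC and 15.9 to 40.4 in tissue, which overlap. Slc25a37 was lower in ntCZC with TMM (log2 difference -1.32, SE 0.22, adjusted p = 1.2e-05), and with red cell list UMIs (-1.97), differed by -3.00 scaled to haemoglobin UMIs, and was higher scaled to total non-haemoglobin UMIs (0.75, adjusted p = 0.0084). Relative to the median of all tested genes it lay 1.37 to 1.46 lower on the 4 scalings.

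The ferritin chains, which store iron, also differed from each other. Ftl1, the light chain, stood at 323 to 551 in ntCZC and 32.3 to 75.2 in tissue on the share scale, and Fth1, the heavy chain, at 67.3 to 219 and 24.3 to 85.9. The ratio of Ftl1 to Fth1 UMIs was 1.60 to 6.45 in ntCZC, 0.627 to 1.98 in tissue and 2.58 in PBMC, so blood and organs overlapped. With TMM Ftl1 was higher in ntCZC (0.86, adjusted p = 0.0012), but scaled to haemoglobin UMIs it differed by -0.70. Fth1 was lower with TMM (-0.86, adjusted p = 0.0105) and higher scaled to total non-haemoglobin UMIs (1.23), and its TMM call was lost without ntCZC het replicate 4 (adjusted p = 0.111), null replicate 2 (0.0723) or tissue null replicate 3 (0.0631). Slc48a1, a haem transporter, stood at 12.0 to 36.6 in ntCZC and 0 to 3.85 in tissue on the share scale and differed by 1.30 with TMM, having reached the filter's level in ntCZC libraries alone. The ferritin genes have many near copies in the mouse genome, so their counts are uncertain.

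Protein turnover and organelle clearance was the list with most genes tested, 9 of 15, of which 7 were higher and 2 lower with TMM (37.5% and 44.3% of all tested genes), and all 9 higher scaled to total non-haemoglobin UMIs (68.2% of all). The 7 include Isg20, which reached the filter's level in ntCZC libraries alone. Ubb, a ubiquitin precursor, stood at 176 to 551 per 10,000 non-haemoglobin UMIs in ntCZC (median 345), 8.09 to 22.3 in tissue (median 17.8) and 156 in PBMC. With TMM it was higher by 1.94 (SE 0.28, adjusted p = 1.3e-06), and scaled to haemoglobin UMIs the difference was 0.53. Against the median of all tested genes it lay 1.89 to 2.07 higher on the 4 scalings. Mkrn1, a ubiquitin ligase with known near copies, stood at 356 to 755 in ntCZC and 28.7 to 69.4 in tissue on the share scale, and differed by 1.21 with TMM (adjusted p = 2.4e-05) but by -0.32 scaled to haemoglobin UMIs. Gabarapl2 and Map1lc3b, which act in autophagy, and Bnip3l (Nix), a receptor for the removal of mitochondria from reticulocytes, were also higher with TMM, by 1.16, 0.67 and 0.46, but had negative differences scaled to haemoglobin UMIs, of -0.30, -0.79 and -1.12. The TMM call of Map1lc3b was lost without ntCZC null replicate 1 (adjusted p = 0.0721) or tissue wt replicate 4 (0.0815), and that of Bnip3l without ntCZC null replicate 1 (0.0559). Ube2l6, a conjugating enzyme for ubiquitin and the related ISG15, was higher by 1.03 with TMM (adjusted p = 0.00139), and differed by -0.40 scaled to haemoglobin UMIs. Among members above 90% haemoglobin the TMM differences of Ube2l6 (-0.15), Map1lc3b (-0.08) and Bnip3l (-0.06) turned to the other sign and were not called.

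Not every gene of that list acts in turnover. Isg20, an exonuclease, reached the filter's level in ntCZC libraries alone, and differed by 1.68 with TMM and 0.27 scaled to haemoglobin UMIs. Fam46c, a poly(A) polymerase, was lower with TMM (-0.91, SE 0.20, adjusted p = 3.2e-04). Its haemoglobin-scale levels were 2.73 to 8.60 in ntCZC (median 3.39) and 12.2 to 42.1 in tissue (median 19.6), with no overlap, against 7.86 in PBMC. On the share scale the order was the other way, at 88.9 to 169 in ntCZC and 27.8 to 62.3 in tissue, again with no overlap, and the difference scaled to total non-haemoglobin UMIs was 1.15. Against the median of all tested genes Fam46c stood at -1.01 to -0.95 on the 4 scalings. Ube2o, a ubiquitin-conjugating enzyme of reticulocytes, was the other gene lower with TMM (-0.89, adjusted p = 0.0084) and higher scaled to total non-haemoglobin UMIs (1.19). That TMM call was lost without ntCZC het replicate 4 (adjusted p = 0.0823), null replicate 2 (0.0637) or wt replicate 3 (0.0528).

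Among 20 genes of the red cell membrane and skeleton, 10 had a UMI in ntCZC members and only Epb41 passed the filter. Epb41 encodes protein 4.1, which ties the spectrin skeleton to the membrane. Its haemoglobin-scale levels were 1.35 to 5.73 in ntCZC (median 2.16) and 6.84 to 16.6 in tissue (median 13.1), with no overlap, and 7.86 in PBMC. On the share scale ntCZC stood higher, at 48.9 to 112 against 14.2 to 41.3. Epb41 was lower with TMM (-0.73, SE 0.24, adjusted p = 0.0084) and higher scaled to total non-haemoglobin UMIs (1.40), and stood at -0.77 to -0.69 against the median of all tested genes on the 4 scalings. The TMM call was lost without ntCZC wt replicate 1, het replicate 4, null replicate 2 or null replicate 3 or tissue null replicate 3, with adjusted p up to 0.111.

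Of the remaining listed red cell genes, Glrx5, needed to build iron-sulfur clusters, reached the filter's level in ntCZC libraries alone, and differed by 0.70 with TMM and -0.71 scaled to haemoglobin UMIs. The 11 erythroid regulators, among them Gata1 and Klf1, gave 29 UMIs in all tested ntCZC libraries together and 330 in tissue, and none passed the filter. Per 10,000 non-haemoglobin UMIs that is 7.17 pooled in ntCZC and 2.04 in tissue, with libraries at 3.96 to 27.2 and 0 to 2.66, so the share was higher in every ntCZC library. Embryonic and theta globins and the globin chaperone gave 67 and 332 UMIs, or 16.6 and 2.05 per 10,000, with libraries at 8.98 to 31.1 and 0 to 3.58, again without overlap. On the haemoglobin scale both lists overlapped, the regulators at 0.0881 to 0.686 in ntCZC and 0 to 0.968 in tissue and the globins at 0.274 to 1.27 and 0 to 1.08. Progenitor and cycling genes gave 1 UMI in ntCZC and 173 in tissue, with libraries at 0 to 4.45 and 0 to 2.92 per 10,000 non-haemoglobin UMIs, which overlap. These sums were not tested.

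**Figure D3:**
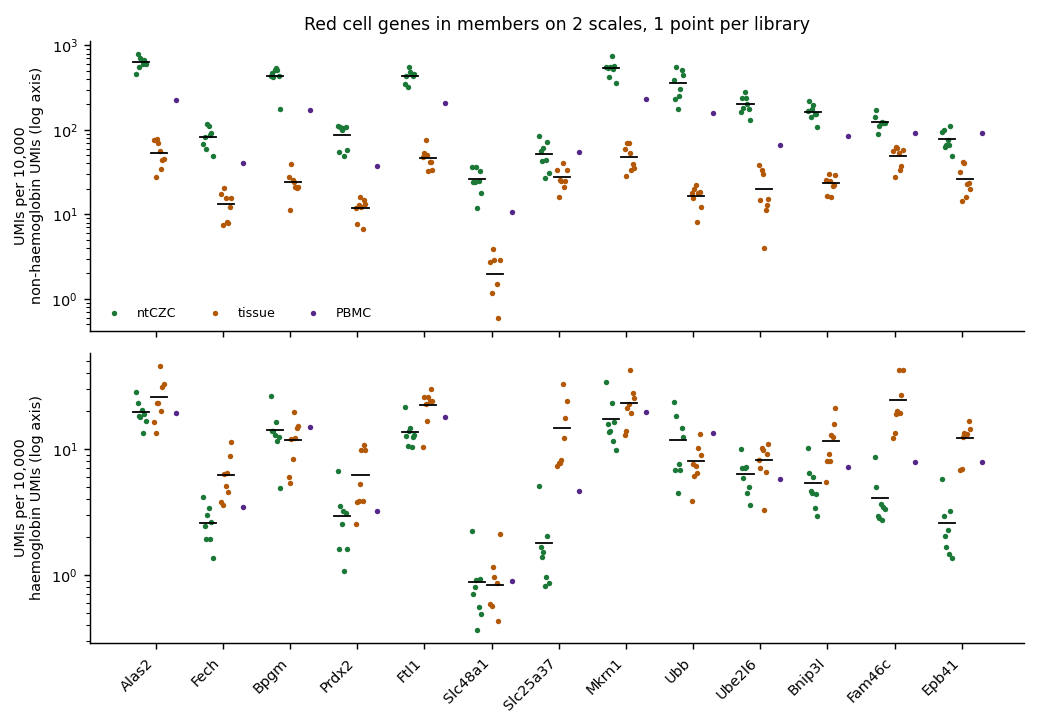
Levels of 13 red cell genes in members, 1 point per library (ntCZC, tissue and PBMC, log axes), per 10,000 non-haemoglobin UMIs (top) and per 10,000 haemoglobin UMIs (bottom). Black bars are means over 8 libraries, and libraries at 0 have no point. In the top panel ntCZC lies above tissue for each gene, with overlap for Slc25a37. In the bottom panel Fam46c, Epb41 and Slc25a37 lie below tissue with no overlap and the other genes overlap. Scaled to haemoglobin UMIs, 83.9% of 149 tested genes were lower in ntCZC and 0 higher, so this sets no gene apart.

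Ratios of red cell genes within a library do not depend on the scaling, and were set out after the levels had been seen, so they are given with no test. Bpgm to Slc25a37 was 5.19 to 20 in the 8 ntCZC libraries (median 8.40), 0.600 to 1.55 in the 8 tissue libraries (median 0.826) and 3.18 in PBMC. Alas2 to Epb41 was 4.89 to 12.4 in ntCZC (median 8.88), 1.5 to 3.5 in tissue (median 1.90) and 2.43 in PBMC. Ubb to Slc25a37 was 2.9 to 14.3 in ntCZC and 0.200 to 0.993 in tissue, and Bpgm to Fam46c 1.48 to 4.71 and 0.364 to 0.639. The 8 ntCZC and 8 tissue libraries did not overlap in these 4 ratios. Each sets a gene called higher with TMM over one called lower in the same libraries, so the separation follows from the choice of pair. Overlap was not counted over all pairs of tested genes, and the ratios are no added support. The PBMC value lay between the ranges in Bpgm to Slc25a37 and, at 2.86, just below the ntCZC range in Ubb to Slc25a37. It lay inside the ntCZC range in Bpgm to Fam46c, at 1.89, and inside the tissue range in Alas2 to Epb41. The 2 tissue libraries without a group had Bpgm to Slc25a37 of 1.16 and 0.517, inside the tissue range or below it, and Ubb to Slc25a37 of 1.46 and 0.425, the first above the tissue range and below the ntCZC range.

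Genes outside the lists were named by fixed rules of abundance and size. Gm42418, an RNA annotated over a ribosomal RNA repeat (chr17:39846958-39848788, plus strand), was the most abundant non-haemoglobin gene in ntCZC members, at 538 to 1931 per 10,000 non-haemoglobin UMIs (median 689), against 68.9 to 365 in tissue and 2292 in PBMC. It was lower in ntCZC with TMM (-0.85, adjusted p = 0.0179) but higher scaled to total non-haemoglobin UMIs (1.22), and the TMM call was lost without ntCZC wt replicate 1, wt replicate 3, het replicate 4, null replicate 2 or null replicate 3, tissue null replicate 2 or tissue wt replicate 3 (adjusted p up to 0.143). AY036118 lies within it on the opposite strand (chr17:39847113-39848035), and differed by 2.30 with TMM, having reached the filter's level in ntCZC libraries alone. Whether reads were assigned by strand decides how such a pair is split, and it is not given in the sources used here. The other genes with the largest TMM differences towards ntCZC were Rec114 (2.14), Isca1 (1.70), Sec61g (1.37), Hagh (1.36) and Rnf10 (1.36), with Ubb, Bpgm, Isg20 and Alas2 as given above. Rec114, Isca1 and Hagh reached the filter's level in ntCZC libraries alone, while Sec61g reached it in all 16 libraries. Rnf10 reached it in 7 ntCZC libraries and only 1 tissue library, so it passed mostly through the kind where it is high.

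Sec61g, a subunit of the channel through which proteins enter the endoplasmic reticulum, stood at 189 to 311 in ntCZC and 15.2 to 26.0 in tissue on the share scale and overlapped on the haemoglobin scale. Hagh is an enzyme of the glyoxalase pathway and Isca1 an iron-sulfur cluster protein. Rec114 is known from meiosis, and stood at a mean of 29.8 per 10,000 non-haemoglobin UMIs in ntCZC members (123 UMIs) and 0.00344 in the other barcodes. Scaled to haemoglobin UMIs, the differences were 0.29 for Isca1, -0.18 for Sec61g and -0.05 for Rnf10, and Rec114 and Hagh did not pass the filter.

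The genes lower in ntCZC on all 4 scalings were led by mitochondrial transcripts, Gpx3 and Malat1. The mitochondrial genes mt-Co1, mt-Co2, mt-Co3 and mt-Atp6 reached the filter's level in at least 7 libraries of each kind. All were called lower with TMM, where 44.3% of all tested genes were, with log2 differences of -8.47 to -5.80. In contrast, mt-Cytb, mt-Nd2, mt-Nd4 and mt-Nd4l reached it in 8 tissue libraries but only 1 ntCZC library. They passed through tissue, where they are high, so their differences of -9.12 to -7.51 are a description. mt-Co3, a cytochrome oxidase subunit, stood at 10.4 to 32.7 in ntCZC and 815 to 1387 in tissue on the share scale (log2 difference -8.47, SE 0.36, adjusted p = 3.7e-17). mt-Nd1 gave 3 UMIs over the 8 ntCZC libraries and 30709 over the 8 tissue libraries. Malat1 stood at 0 to 8.90 and 44.5 to 88.1 (log2 difference -6.82). Gpx3, a secreted peroxidase made in the kidney tubule, was at 0 UMIs in all tested ntCZC libraries and at 23.8 to 85.0 in tissue. Malat1, Gpx3, mt-Nd1, mt-Nd3 and mt-Nd5 reached the filter's level in tissue libraries alone. Of 16 ribosomal protein genes tested, 13 were lower with TMM and 3 not called, but scaled to total non-haemoglobin UMIs 5 were higher and 0 lower, where the median of all tested genes moved as well. Against that median the median ribosomal protein gene differed by -1.55, -1.58 and -1.58 with TMM, total and haemoglobin scaling.

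Other lists of cell type markers gave few UMIs in ntCZC members, and none but kidney tubule, through Gpx3, had a gene that passed the filter. T and NK cell, fibroblast, kidney tubule, lung, stomach, epididymal and pan-epithelial genes gave 0 UMIs in the 8 tested ntCZC libraries. Endothelial and hepatocyte genes gave 1 UMI each, B cell genes 2, neutrophil genes 3, platelet genes 6, pan-leukocyte genes 6, and monocyte and macrophage genes 24. In the 8 tissue libraries every one of these 14 lists had UMIs, from 143 for fibroblast and 186 for platelet genes to 6603 for lung and 14139 for kidney tubule genes. Neutrophil genes gave 4015 UMIs there, and monocyte and macrophage genes 1429. These counts were drawn from 1619093 non-haemoglobin UMIs in tissue and only 40463 in ntCZC. Per 10,000 of them monocyte and macrophage genes stood at 5.93 in ntCZC and 8.83 in tissue, platelet genes at 1.48 and 1.15, and neutrophil genes at 0.741 and 24.8. Libraries of the groups overlapped for each of these lists, platelet genes at 0 to 5.95 and 0 to 4.04 and neutrophil genes at 0 to 10.4 and 0 to 49.9. Lung markers were highest in tissue het replicate 1, at 66.1 per 10,000 non-haemoglobin UMIs in members and 168 in the other barcodes, and neutrophil markers in tissue wt replicate 2, at 49.9 and 26.5. The part of these transcripts in the differences above was not tested.

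Splitting the members by their haemoglobin share shows which transcripts moved with it. Tissue members between 50 and 60% held 3741 mitochondrial UMIs per 10,000 haemoglobin UMIs, those between 60 and 75% held 2316, those between 75 and 90% held 929 and those above 90% held 266. Nuclear retained RNAs fell over the same bands from 100 to 31.5, 7.57 and 3.49, and kidney tubule genes from 63.3 to 41.2, 18.7 and 10.7. These trends follow in part from the rule, since the bands are cut on the haemoglobin share, and are a description.

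Red cell genes varied less than mitochondrial genes over the same bands, though not all alike. Their lists together stood at 263, 208, 178 and 134 per 10,000 haemoglobin UMIs in the 4 tissue bands, and Ubb at 9.52, 6.97, 5.05 and 3.28. Alas2 stood at 18.6, 17.8, 18.5 and 16.6 per 10,000 haemoglobin UMIs in the 4 tissue bands, and at 17.6 and 18.9 in ntCZC and PBMC members above 90%. Fam46c stood at 16.5, 15.8, 15.3 and 12.1 in the tissue bands, against 3.32 in ntCZC and 7.37 in PBMC. Epb41 stood at 6.78 in tissue members above 90%, against 2.05 in ntCZC and 7.37 in PBMC, and Slc25a37 at 6.86 against 1.35 and 4.64. Bpgm ran the other way, with 5.62 in tissue members above 90%, 12.7 in ntCZC and 13.9 in PBMC. Mitochondrial genes stood at 266 in tissue, 4.68 in ntCZC and 8.73 in PBMC members above 90%. Haemoglobin was 91.5% of the pooled UMIs of those tissue members, 97.3% in ntCZC and 94.4% in PBMC, so the kinds were not matched within this band. The tissue band above 90% held 196 members from 4 libraries, so these pooled values carry no error over libraries.

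**Figure D4:**
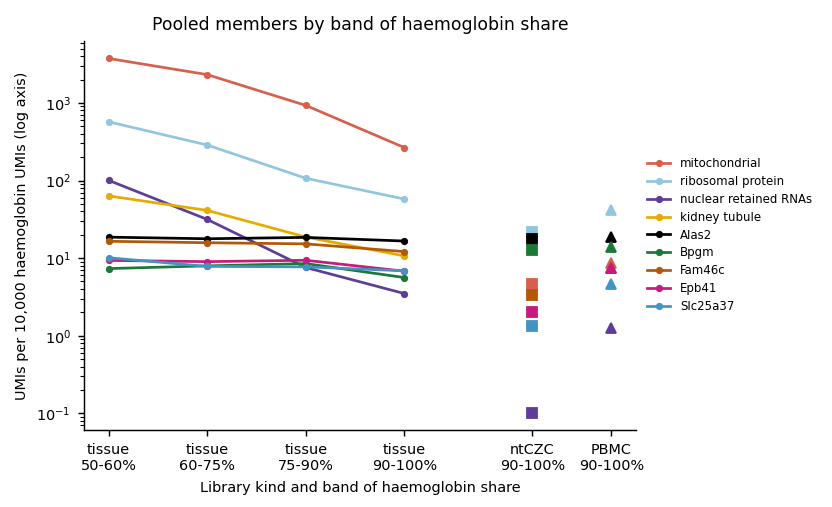
UMIs per 10,000 haemoglobin UMIs (log axis) in members pooled by library kind and band of haemoglobin share: circles joined by lines for tissue, squares for ntCZC and triangles for PBMC members above 90%. Over the tissue bands mitochondrial genes drop from 3741 to 266 while Alas2 stays between 16.6 and 18.6, and values at 0 have no mark.

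The balance of the haemoglobin chains was close between blood and organs. Alpha genes gave 24.6 to 32.4% of haemoglobin UMIs in ntCZC (28.0 ± 2.52%, SD, n = 8) and 26.5 to 31.7% in tissue (28.1 ± 1.56%, n = 8). The means differed by -0.11 percentage points (exact permutation test, adjusted p = 0.922), less than the spread between libraries. Within the alpha pair Hba-a1 took 59.7 ± 0.921% in ntCZC and 59.4 ± 1.48% in tissue (exact permutation test, adjusted p = 0.771), with the reservation on shared sequence above. Within the beta pair Hbb-bs took 85.5 ± 1.53% and 84.6 ± 1.66% (exact permutation test, adjusted p = 0.445), with the same reservation. All 4 genes were found in 243 of 244 ntCZC members and 3155 of 3159 tissue members. The PBMC members had the highest alpha share of any tested or PBMC library, 34.6%, from 1 library.

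**Figure D5:**
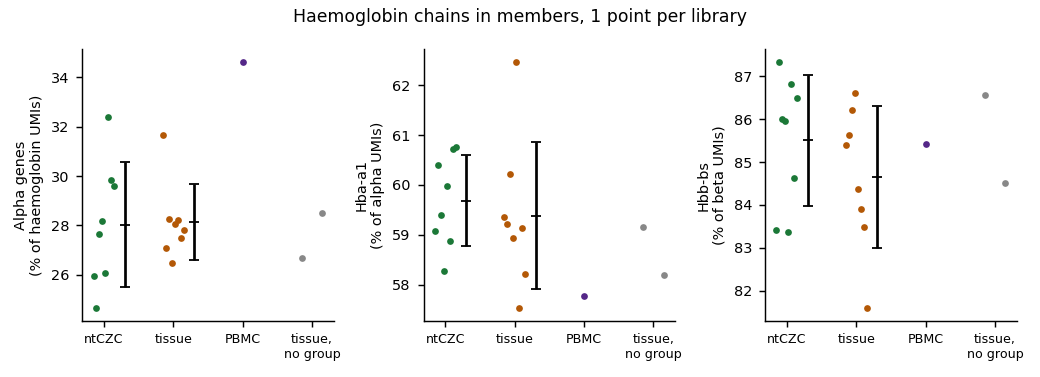
Chains of haemoglobin in members, 1 point per library: alpha genes as percent of haemoglobin UMIs, Hba-a1 as percent of alpha UMIs and Hbb-bs as percent of beta UMIs. Bars give mean ± SD over 8 libraries; ntCZC and tissue overlap in all 3 panels, and axes do not start at 0.

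Counted in members with equal weight the beta result changed. When each library's value was the mean over its members and not the pooled UMIs, Hbb-bs stood 3.25 percentage points higher in ntCZC (88.8 against 85.5%, exact permutation test, adjusted p = 0.0101). The pooled value weights members by their UMIs, while this average weights members equally.

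Genotype was compared between null and het ntCZC libraries, 4 against 2, with the 2 other het libraries left out for holding fewer than 10 members. Null against wt, and genotypes among tissue libraries, were not tested here. Of 76 genes tested with edgeR, 1 was called (1.32%), Gm42418, lower in null (log2 difference -1.39, SE 0.30, adjusted p = 0.0321), and 11 had an unadjusted p under 0.05. The het libraries held it at 732 and 1931 per 10,000 non-haemoglobin UMIs and the null libraries at 571, 599, 704 and 864, so they overlap and the difference follows ntCZC het replicate 3. Without that library, or without any of 5 others (ntCZC wt replicates 1 and 3 and null replicates 1, 3 and 4), 0 genes were called (4 to 11 at an unadjusted p under 0.05). Without het replicate 4, or without null replicate 2, 3 genes were called. The alpha share was 28.6 ± 2.70% in null (n = 4) and 27.1 ± 3.49% in het (n = 2), with an exact permutation p of 0.667, where 0.0667 is the smallest this design allows. Null and het differed in sex as well, since 3 of 4 null and 1 of 2 het libraries were labelled female.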

How the data were processed

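The values used were UMI counts, whole numbers for each barcode and gene, deposited by the authors as filtered 10x matrices with no normalization (10x 3′ v3 chemistry). The submitters' processing notes name Cell Ranger 2.1.1, the matrix headers Cell Ranger 3.0.2, and the genome build is mm10 (GRCm38). Library totals ran from 161541 to 139793927 UMIs. Hashtag counts were not used, and doublets were not removed.

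Members, gene lists and the question asked of each were chosen with earlier results of these data known. Non-haemoglobin counts were summed per library over its members, because libraries and not barcodes are the replicates. The labels do not say that libraries came from separate mice, so p-values measure the spread between libraries. Same-numbered ntCZC and tissue libraries in the tests may share a mouse, which only the replicate block allowed for. Libraries with at least 10 members entered tests. The 2 libraries without a clear genotype label entered none. Gene tests used edgeR 4.0.16 in R 4.3.3 (filterByExpr, TMM, quasi-likelihood, sex as covariate, Benjamini-Hochberg threshold 0.05), with DESeq2 1.42.0 as an alternative, and 6 library values were compared by exact two-sided permutation tests in numpy 2.4.6 (scipy 1.17.1, pandas 2.3.3, Python 3.11.15). The edgeR step was run on simulated counts with known raised and lowered genes. The simulation did not include a shift of most genes between kinds like the one seen here, so it does not bear on the choice of scaling. In replicate pairs the chi-square of counts per degree of freedom was at least 1.30, so no pair was counted as 1 library. Intervals and the limits that a count of 0 allows (3 counts) cover counting error only.

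Genes named in the text were those of the lists, the 15 most abundant per library kind, up to 10 per direction with the largest log2 difference among called genes, and up to 10 per kind with the highest ratio of members to other barcodes. Scalings to haemoglobin, red cell list and total non-haemoglobin UMIs, fits without mitochondrial genes, without both libraries in doubt or without libraries under 5000 non-haemoglobin UMIs, and ratios between genes, were added after seeing the data. Coding sequences came from GENCODE vM21 and promoters from RefSeq (GRCm38.p6). Some items are not reported here.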

Additional observations from a re-analysis of the deposited data

Results flagged for a closer look

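Of 80 groups of 8 libraries tested for a library far from the rest of its group, over 40 values, 11 held one, where chance alone gives about 1 in 20. No explanation of them was tested.

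In ntCZC het replicate 3, which held 13 members, ribosomal protein genes gave 13.6% of non-haemoglobin UMIs (5.18 to 8.39% in the other 7 libraries), Gm42418 stood at 1931 per 10,000 non-haemoglobin UMIs (538 to 864) and Bpgm, the enzyme that makes 2,3-bisphosphoglycerate, at 178 (419 to 539). In ntCZC null replicate 4, with 73 members, the mitochondrial share was 3.11% (0.756 to 1.80%), and mt-Cytb stood at 20.8 (0 to 8.90) and mt-Nd1 at 1.98 (0 to 0.863) per 10,000 non-haemoglobin UMIs, the last of these from 2 UMIs. In ntCZC wt replicate 1, with 10 members, the red cell lists gave 270 UMIs per 10,000 haemoglobin UMIs (87.9 to 144). In ntCZC wt replicate 3, Rec114 stood at 65.0 per 10,000 non-haemoglobin UMIs (12.1 to 31.9), from 22 UMIs.

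Among tissue libraries, wt replicate 1 had the highest alpha share, 31.7% of haemoglobin UMIs (26.5 to 28.3% in the other 7). Tissue wt replicate 2 had a ribosomal protein share of 8.39% (3.68 to 5.82%) and Fth1 at 85.9 per 10,000 non-haemoglobin UMIs (24.3 to 48.1).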

How the results depend on the processing

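The mitochondrial share stayed lower in ntCZC, and past the threshold, under all alternatives but the block. The difference in median UMIs per member, from which no test is read, was 4435 above 90% haemoglobin. The ribosomal protein difference, from which no call is drawn, no longer passed the threshold with at least 20 members per library (2.07 percentage points). Nor did it with haemoglobin thresholds of 40% (1.61), 75% (2.36) or 90% (2.13). The alpha share, never called, changed sign with at least 20 members (0.0848) and as a mean of single barcodes (1.33), where the Hbb-bs difference of 3.25 passed. Leaving out 1 library gave -0.73 to 0.40 for alpha, 0.0354 to 0.742 for Hba-a1, 0.419 to 1.16 for Hbb-bs, -53.4 to -49.6 for mitochondrial and 1.55 to 2.86 for ribosomal shares, 4945 to 5846 for median UMIs, -1.01 to 3.93 for the alpha share of null against het, 66 to 89 genes for ntCZC against tissue and 0 to 3 genes for null against het. Fits that left 1 het library assume that it varies like the other groups.

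The 72 genes became 1705 of 15543 with no filter (10 higher), 297 of 449 with at least 20 members, 22 of 72 above 90% haemoglobin, 303 of 537 in libraries with at least 5000 non-haemoglobin UMIs (ntCZC null replicates 1 and 4 against 7 of tissue), and 125 of 149 scaled to haemoglobin UMIs (0 higher). The other alternatives, apart from the replicate block below, gave 49 to 105, with 60 higher and 14 lower on total non-haemoglobin UMIs. The number of genes tested changed with each of these. The call between null and het, Gm42418, became 0 in edgeR with RLE scaling, no filter, no sex covariate, at least 5 members or haemoglobin scaling (4 to 11 at an unadjusted p under 0.05), and was 1 in DESeq2. With at least 20 members that comparison was not run, for want of residual degrees of freedom.

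The scalings moved all genes together, and no gene named next changed its side of the median of all tested genes with them. That largely follows from rescaling the same counts. Single genes that changed sign were, scaled to haemoglobin UMIs, Ube2l6 (-0.40), Alas2 (-0.31), Rnf10 (-0.0483), Mkrn1 (-0.32), Ftl1 (-0.70), Prdx2 (-0.997), Gabarapl2 (-0.30), Map1lc3b (-0.79), Bnip3l (-1.12), Sec61g (-0.18), Glrx5 (-0.71) and Fech (-1.25). On total non-haemoglobin UMIs they were Fam46c (1.15), Epb41 (1.40), Slc25a37 (0.75), Gpx1 (1.36), Ube2o (1.19), Gm42418 (1.22) and Fth1 (1.23), and on red cell list UMIs Prdx2 (-0.0520), Bnip3l (-0.16) and Fech (-0.25). With at least 20 members they were Epb41 (0.0837) and Gpx1 (0.41), above 75% haemoglobin Fech (-0.0567), and above 90% Ube2l6 (-0.15), Map1lc3b (-0.0800), Bnip3l (-0.0621) and Fech (-0.47). With at least 5000 non-haemoglobin UMIs they were Fam46c (0.0318), Epb41 (0.34), Gpx1 (0.95), Ube2o (0.10), Gm42418 (0.0249) and Fth1 (0.33). Other named genes kept their sign but lost their call. Above 90% haemoglobin 13 did so and 14 kept their result, and above 75% these counts were 9 and 22. With no filter they were 20 and 12, and with at least 20 members 6 and 24. The cause of the changes outside the scalings was not tested.

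Same-numbered ntCZC and tissue libraries correlated at -0.163 to 0.0459 over 4 pairs, which cannot show whether a pair came from 1 mouse. The labels of each pair matched in genotype and sex. Ages were 571 and 571 (wt replicate 1), 608 and 608 (wt replicate 3), 552 and 552 (null replicate 2) and 612 and 611 days (null replicate 3). The main tests treated these libraries as independent. With the replicate block the mitochondrial difference was -52.6, the ribosomal 1.25 and the Hba-a1 -0.11, none past the threshold, because 4 pairs allow no exact p under 0.125. The median UMIs, from which no test is read, differed by 6501. In edgeR the block called 35 of 50 genes between ntCZC and tissue, and 0 of 63 between null and het (1 at an unadjusted p under 0.05). Of the genes named in the text, 22 kept their result between ntCZC and tissue with the block and 3 lost their call.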
